A study of Mus musculus with 12 samples.

Results

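The 34 genes described here encode the proteins that bring long-chain fatty acids into heart muscle cells, carry them into mitochondria and oxidise them there, with the peroxisomal branch, the thioesterases that cut acyl-CoA, and a pair of genes that are switched on when fat replaces glucose as fuel. They were taken as a list by gene symbol, from what the proteins do, with earlier results of these data known. All 34 were matched to 1 gene each among the 47729 genes counted, and all 34 were among the 15336 genes with enough reads to be tested. The RNA came from hearts of male C57BL/6 mice that were 8 weeks old at the start, with the part of the heart not given. Every mouse carried a subcutaneous osmotic pump for 28 days, which delivered saline in the controls and angiotensin II (Ang II, a pressor hormone) in the other 3 groups. During the last 2 weeks the mice received vehicle, oral EHP-101 at 20 mg/kg (an oral formulation described as acting on PPAR gamma and cannabinoid receptors) or losartan at 0.6 g/L in the drinking water (a blocker of the Ang II type 1 receptor), and both drugs were given on top of Ang II. Each of the 4 groups holds 3 libraries. In the titles the control libraries are named as controls of Ang II, and they were read as the saline arm.

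The heart draws most of its ATP from long-chain fatty acids. CD36 and the transport protein SLC27A1 bring them across the cell membrane, FABP3 carries them in the cytosol, and ACSL1 joins them to coenzyme A. The carnitine palmitoyltransferases move the acyl group into the mitochondrial matrix, where each turn of beta-oxidation runs through a dehydrogenase, a hydratase, a second dehydrogenase and a thiolase, and shortens the chain by an acetyl unit. Electrons leave through the electron transfer flavoprotein. Many of these genes are known targets of PPAR alpha and the oestrogen-related receptors with the coactivator PGC-1 alpha, and lower expression of the pathway is a well-known feature of the overloaded heart.

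The libraries held between 22155418 and 24040516 reads in genes, and values are given as CPM (counts scaled to a common library size) with edgeR's TMM factors. A difference is a log2 fold change ± its SE from edgeR's quasi-likelihood test, fitted over all tested genes and all 12 libraries, with Benjamini-Hochberg adjustment over the 15336 genes and a threshold of 0.05. The labels do not say that the 3 libraries of a group come from separate animals, so p-values measure the spread between these libraries. Between 2 libraries of a group the chi-square per degree of freedom ran from 11.5 to 140, above what read counting alone gives. Whether this spread comes from animals or from handling of the samples was not tested. Control replicate 2 stood apart from the other 11 libraries over all genes: its first principal component, which held 35.3% of the variance, was -84.37, against -12.72 to 32.41 in the others. Its TMM factor was 0.839, the lowest of the 12. Where leaving it out moved a printed difference of the 34 genes from the controls by 1.5 times or more, the value without it is given as well.

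Ang II hearts had lower values than control hearts for 33 of the 34 genes, and none of the 34 passed the test. The median log2 fold change of the 34 was -0.46, with a range from -0.64 for Acaa2 to 0.25 for Pdk4. Over all tested genes the median was 0, and the middle 80% lay between -0.41 and 0.57. As the list was chosen with earlier results of these data known, it is not independent of them. For 23 of the 34 genes every Ang II library was below every control library, and for 0 of them above, where over all tested genes 10.3% were below and 12.3% above without overlap. The same shares stand beside the counts given below for single roles. By edgeR's adjusted p, 0 of the 34 were called, beside 83 of all genes (0.541%), of which 79 were higher and 4 lower. Without adjustment, 21 of the 34 genes had an edgeR p under 0.05, all lower. Of the 15336 tested genes 2702 did, counted in either direction. The adjusted p of the 34 ran from 0.147 to 0.929. DESeq2 called 5 of the 34, all lower, where it called 0.94% of all genes lower: Hadh (adjusted p = 0.0269), Echs1 (0.0322), Acaa2 (0.0361), Crat (0.0459) and Cpt2 (0.0484). Limma-voom called 0 of them, beside 0.00652% of all genes lower, and limma-voom with sample quality weights called 22, all lower, beside 7.37%. Without control replicate 2 the median of the 34 was -0.34, and edgeR again called 0. In bulk tissue, fewer cells of a type and less RNA per cell cannot be told apart.

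**Figure D1:**
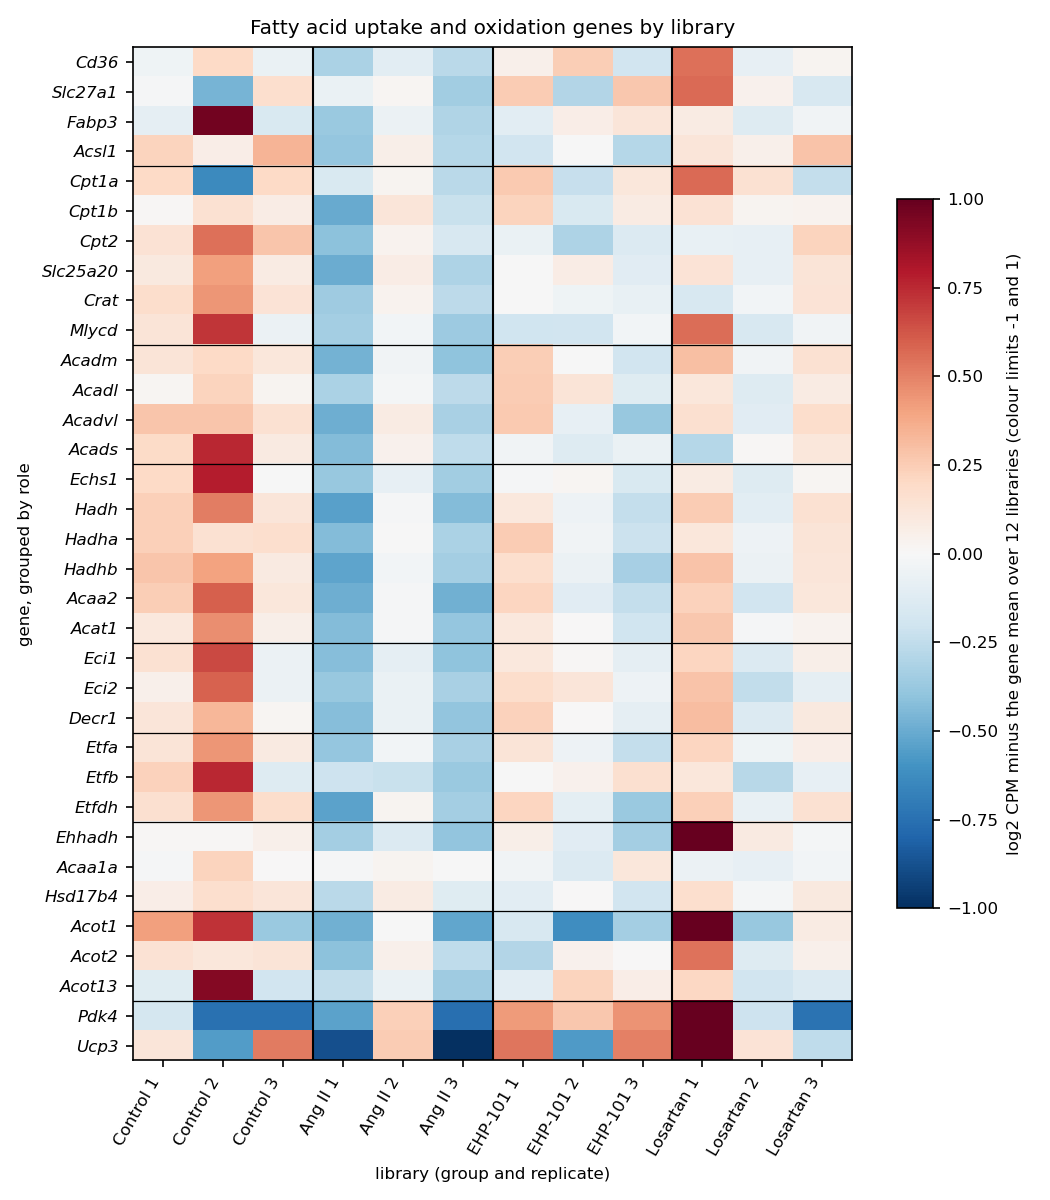
Heatmap of log2 CPM of the 34 genes (rows, grouped by role) in the 12 libraries (columns), each gene centred on its mean over the libraries, with red above and blue below. Ang II replicates 1 and 3 are blue in nearly every row, Ang II replicate 2 is near white, and the darkest red cells belong to control replicate 2 and losartan replicate 1.

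The 3 Ang II libraries were not alike. Ang II replicate 1 was the lowest of all 12 libraries for 24 of the 34 genes and Ang II replicate 3 for another 6. Ang II replicate 2 was the highest of its group for 33 of the 34. The summed level of the 34 genes was 11226, 14713 and 11765 CPM in the Ang II libraries, against 16016, 19444 and 15373 CPM in the controls. With EHP-101 the sums were 16091, 15207 and 13574 CPM, and with losartan 19778, 14030 and 15573 CPM. The Ang II and control sums did not overlap, while the sum of Ang II replicate 2 was inside the range of both treated groups. Leaving out a library cannot lower the count of genes without overlap, as fewer values are compared. With any 1 library left out in turn, between 23 and 30 of the 34 genes were below the controls without overlap. Without control replicate 2 there were 24, with 18.3% of all genes, and without Ang II replicate 2 there were 30, with 20.1% of all genes.

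Uptake and activation came first in the pathway, and 2 of its 4 genes, Cd36 and Acsl1, were lower under Ang II without overlap. Cd36 (ENSMUSG00000002944, chr5:17781690-17888801 of GRCm38), the main fatty acid translocase of muscle, was at 1993, 2361 and 1965 CPM in the control libraries, 1646, 1905 and 1698 CPM under Ang II, 2124, 2436 and 1795 CPM with EHP-101 and 3009.9, 1937 and 2097 CPM with losartan. The Ang II values lay just below the controls, and losartan replicate 1 was the highest library of the 12. The log2 fold change of Cd36 was -0.27 ± 0.18 (adjusted p = 0.448) for Ang II against control, and -0.18 (adjusted p = 0.744) without control replicate 2. Acsl1, the main long-chain acyl-CoA synthetase of the heart, was at 1051, 944 and 1144 CPM in the control libraries, 692, 942 and 741 CPM under Ang II, 789, 901 and 743 CPM with EHP-101 and 982, 935 and 1103 CPM with losartan. Its Ang II replicate 2 came within 3 CPM of the lowest control, and the difference was -0.40 ± 0.15 (adjusted p = 0.231). Fabp3, the cytosolic carrier of the heart, was at 1235, 2562 and 1181 CPM in the control libraries, 1016, 1262 and 1065 CPM under Ang II, 1223, 1375 and 1427 CPM with EHP-101 and 1389, 1198 and 1284 CPM with losartan. Control replicate 2 held far more Fabp3 than the other 11 libraries, and the groups overlapped. The difference of Fabp3 was -0.57 ± 0.25 (adjusted p = 0.266), and -0.12 (adjusted p = 0.765, edgeR) without control replicate 2. The 50-base stretches of the Fabp3 transcript are shared with other genes in 37.34% of cases, mostly with the pseudogene Fabp3-ps1, so its reads could be split between them. Slc27a1 differed by -0.04 ± 0.22 (adjusted p = 0.929), and by -0.21 (adjusted p = 0.753) without that library.

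Per kb of exon the most abundant of the 34 was Fabp3, with a mean over the 12 libraries of 1642 CPM per kb. Cd36 followed at 580 CPM per kb (mean of 12), then Acadl at 499 and Acaa2 at 452. The least abundant was Acot1 at 1.54 CPM per kb, after Ehhadh at 5.23, Cpt1b at 5.63 and Cpt1a at 8.43. Cpt1b is the muscle form of carnitine palmitoyltransferase I and Cpt1a the liver form. In GENCODE M21, 81.38% of the exon bases of Cpt1b lie within the read-through gene Gm44502 on the same strand. Gm44502 is not among the genes counted, and whether the overlap lowered the Cpt1b count was not tested.

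In the carnitine shuttle, 3 of 6 genes (Cpt2, Slc25a20 and Crat) were lower under Ang II without overlap. Cpt2, which rebuilds acyl-CoA in the matrix (chr4:107903981-107923610), was at 224, 296 and 246 CPM in the control libraries, 152, 208 and 181 CPM under Ang II, 193, 163 and 184 CPM with EHP-101 and 192, 191 and 236 CPM with losartan. Every Cpt2 value under Ang II and with EHP-101 was below every control value, while losartan replicate 3 lay inside the control range. The log2 fold change of Cpt2 was -0.50 ± 0.16 (adjusted p = 0.17) for Ang II. Cpt1b was at 19.0, 20.9 and 19.8 CPM in the control libraries, 13.3, 20.5 and 16.1 CPM under Ang II, 22.0, 16.9 and 19.9 CPM with EHP-101 and 20.8, 19.2 and 19.3 CPM with losartan. Its groups overlapped through Ang II replicate 2, with a difference of -0.26 ± 0.15 (adjusted p = 0.379). Crat, which exchanges acetyl and short acyl groups between coenzyme A and carnitine, differed by -0.44 ± 0.15 (adjusted p = 0.192), and the carnitine-acylcarnitine carrier Slc25a20 by -0.43 ± 0.16 (adjusted p = 0.221). Mlycd, which degrades the CPT1 inhibitor malonyl-CoA, differed by -0.53 ± 0.22 (adjusted p = 0.249) with overlap, and by -0.27 (adjusted p = 0.58) without control replicate 2. Cpt1a differed by -0.10 ± 0.24 (adjusted p = 0.843), which was -0.33 (adjusted p = 0.536) without it.

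All 4 acyl-CoA dehydrogenases, which begin each turn on chains of different length, were lower under Ang II without overlap. Acadm, the medium-chain enzyme (chr3:153922357-153944632), was at 961, 1008 and 953 CPM in the control libraries, 633, 861 and 666 CPM under Ang II, 1046, 876 and 772 CPM with EHP-101 and 1084, 859 and 979 CPM with losartan. The 3 controls of Acadm were close together, Ang II replicates 1 and 3 were clearly below them, and Ang II replicate 2 was nearer to them. The log2 fold change was -0.44 ± 0.16 (adjusted p = 0.223). Acadl, the long-chain enzyme, was at 1011, 1162 and 1012 CPM in the control libraries, 799.6, 979.6 and 829 CPM under Ang II, 1189, 1086 and 913 CPM with EHP-101 and 1075, 911 and 1050.4 CPM with losartan, a difference of -0.29 ± 0.15 (adjusted p = 0.324). Acads, the short-chain enzyme, was at 225, 333 and 210.1 CPM in the control libraries, 146, 203 and 165 CPM under Ang II, 192, 181 and 188 CPM with EHP-101 and 162, 199 and 213 CPM with losartan. Acads in the EHP-101 libraries was below every control, and its log2 fold change was -0.58 ± 0.19 (adjusted p = 0.185) for Ang II, and -0.35 without control replicate 2. Acadvl, the very-long-chain enzyme of the inner membrane, differed by -0.46 ± 0.19 (adjusted p = 0.245). On its locus 42.85% of the exon bases overlap Dvl2 on the opposite strand, and reads of these libraries carry no strand.

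The hydration, second oxidation and thiolysis steps had the lowest median of the 9 roles, -0.58 (-0.46 without control replicate 2, again the lowest), and all 6 of their genes were lower under Ang II without overlap. Hadh, the 3-hydroxyacyl-CoA dehydrogenase (chr3:131233419-131272101), was at 611, 737 and 562 CPM in the control libraries, 355, 514 and 382 CPM under Ang II, 557, 499 and 437 CPM with EHP-101 and 615, 479.6 and 576 CPM with losartan. Its highest Ang II value, in replicate 2, was below its lowest control value, in replicate 3. The log2 fold change of Hadh, -0.61 ± 0.18 (adjusted p = 0.147), had the smallest p of the 34, and was -0.49 (adjusted p = 0.258, edgeR) without control replicate 2. Echs1, the short-chain enoyl-CoA hydratase (chr7:140105710-140116476), was at 382, 572 and 332 CPM in the control libraries, 255, 313 and 260.3 CPM under Ang II, 329.5, 336 and 299 CPM with EHP-101 and 352, 303 and 336 CPM with losartan. Echs1 was highest in control replicate 2, and its difference was -0.63 ± 0.18 (adjusted p = 0.148) with that library and -0.37 (adjusted p = 0.252, edgeR) without it. Acaa2, the mitochondrial 3-ketoacyl-CoA thiolase, was at 795, 1014 and 726 CPM in the control libraries, 479.5, 664 and 482 CPM under Ang II, 779, 621 and 570.0 CPM with EHP-101 and 789, 589 and 724 CPM with losartan. Acaa2 differed by -0.64 ± 0.19 (adjusted p = 0.155), and by -0.49 (adjusted p = 0.289, edgeR) without control replicate 2. Acat1, which splits acetoacetyl-CoA, differed by -0.49 ± 0.17 (adjusted p = 0.197).

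**Figure D2:**
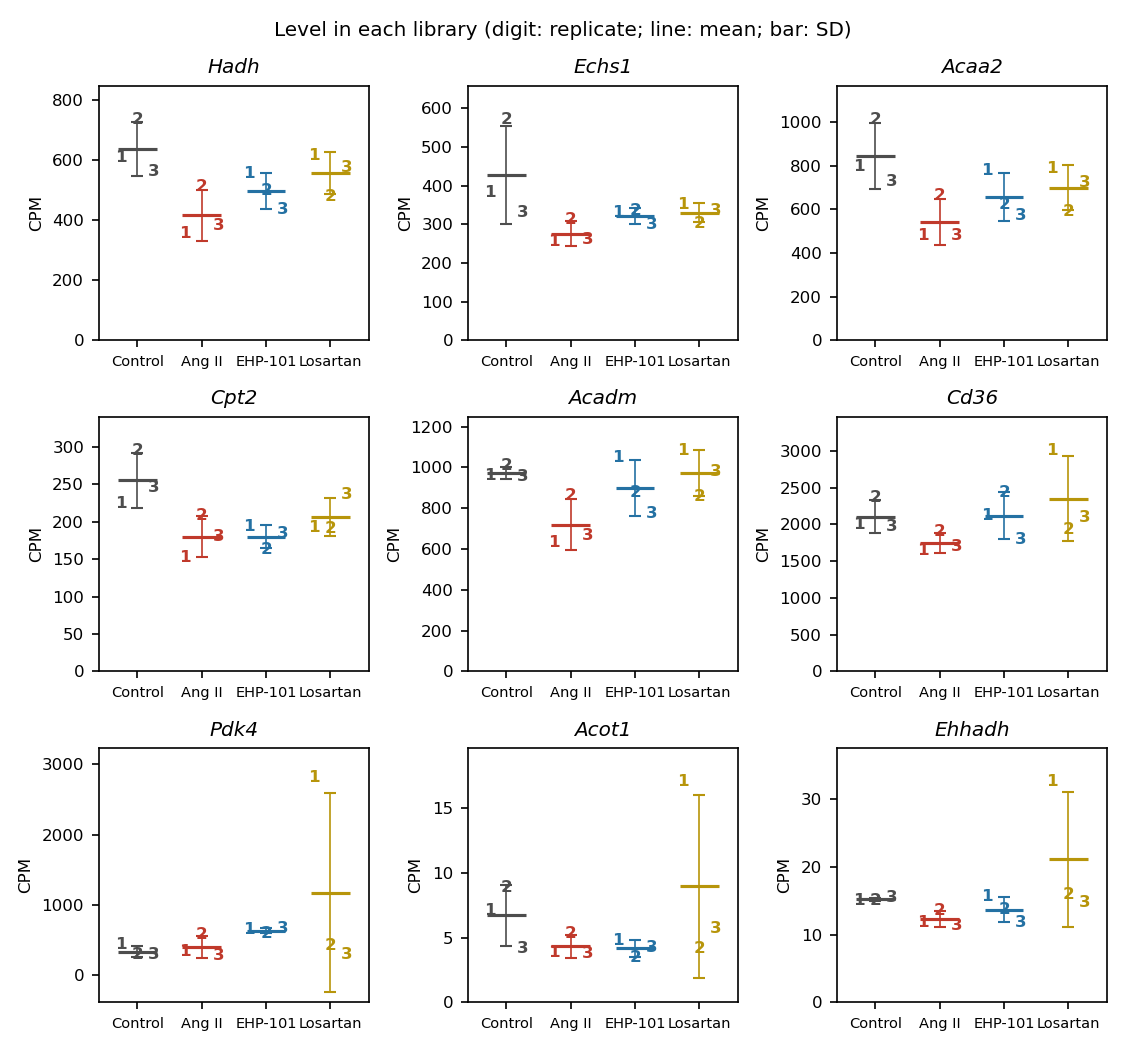
Level of 9 of the genes in CPM (vertical axis from 0, except for the Pdk4 panel, whose lower SD bar reaches below 0) in each library, drawn as the replicate number, with the group mean as a line and the SD as a bar (n = 3). For Hadh, Echs1, Acaa2, Cpt2, Acadm and Cd36 the 3 Ang II values lie below the 3 control values, and for Pdk4, Acot1 and Ehhadh losartan replicate 1 lies far above the other 11 libraries.

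Hadha and Hadhb encode the alpha and beta subunits of the mitochondrial trifunctional protein, which carries out the last 3 steps on long chains. They are neighbours that run in opposite directions, and their RefSeq start sites lie 273 bases apart. The window from 250 bases before to 50 bases after the Hadhb start site is shown because both genes share it. It covers chr5:30155003-30155302 on the plus strand of GRCm38.p6, 5′ to 3′, and capitals mark the 228 bases that also fall in the Hadha window.
Hadhb: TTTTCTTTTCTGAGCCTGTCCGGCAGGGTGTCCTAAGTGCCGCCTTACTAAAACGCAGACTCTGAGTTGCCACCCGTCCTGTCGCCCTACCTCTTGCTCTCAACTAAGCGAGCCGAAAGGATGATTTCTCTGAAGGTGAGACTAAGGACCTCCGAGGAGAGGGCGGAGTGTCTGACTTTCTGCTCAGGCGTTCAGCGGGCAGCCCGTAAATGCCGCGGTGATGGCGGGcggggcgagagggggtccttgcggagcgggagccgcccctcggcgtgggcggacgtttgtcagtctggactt
Hadha was at 1425, 1340.2 and 1355 CPM in the control libraries, 895, 1200.1 and 970.4 CPM under Ang II, 1439, 1176 and 1039.5 CPM with EHP-101 and 1302, 1163 and 1321 CPM with losartan. Hadhb was at 879.9, 962 and 773 CPM in the control libraries, 506, 713 and 575 CPM under Ang II, 818, 698 and 579 CPM with EHP-101 and 889, 698 and 790.0 CPM with losartan. In the Ang II libraries both subunits were lower than in any control, and both were lowest in replicate 1. The log2 fold change was -0.43 ± 0.16 (adjusted p = 0.221) for Hadha and -0.54 ± 0.18 (adjusted p = 0.185) for Hadhb. The ratio of Hadha to Hadhb CPM ran from 1.39 in control replicate 2 to 1.79 in EHP-101 replicate 3. Of the 50-base stretches of Hadhb, 19.74% occur in other genes, most of them in Gm13910.

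The auxiliary enzymes of unsaturated chains and the electron transfer genes were lower under Ang II without overlap in 3 of 3 cases each. Decr1, the 2,4-dienoyl-CoA reductase, was at 446, 514 and 416 CPM in the control libraries, 304, 391 and 311 CPM under Ang II, 481, 409.7 and 385 CPM with EHP-101 and 507, 371 and 438 CPM with losartan, and differed by -0.45 ± 0.16 (adjusted p = 0.214) for Ang II. Eci1, an enoyl-CoA isomerase of mitochondria, differed by -0.58 ± 0.18 (adjusted p = 0.17), and Eci2 by -0.47 ± 0.19 (adjusted p = 0.24). Without control replicate 2 these were -0.35 (adjusted p = 0.324) for Eci1 and -0.25 (adjusted p = 0.529) for Eci2. Etfb, the beta subunit of the electron transfer flavoprotein, was at 119, 171 and 92.6 CPM in the control libraries, 88.1, 87.1 and 78.3 CPM under Ang II, 101, 105 and 113 CPM with EHP-101 and 109.5, 83.7 and 95.7 CPM with losartan. The highest Ang II value of Etfb was below the lowest control, and the difference was -0.59 ± 0.19 (adjusted p = 0.179), or -0.32 without control replicate 2. Of the Etfb exon bases, 53.01% are shared with the gene model Gm45233 on the same strand. The alpha subunit Etfa differed by -0.46 ± 0.16 (adjusted p = 0.199), and Etfdh, which passes the electrons to ubiquinone, by -0.53 ± 0.19 (adjusted p = 0.212).

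Of the 3 peroxisomal genes and the 3 thioesterases, Ehhadh and Acot2 were lower under Ang II without overlap. Ehhadh, the peroxisomal bifunctional enzyme (chr16:21761287-21787807), was at 15.1, 15.1 and 15.5 CPM in the control libraries, 11.8, 13.6 and 11.4 CPM under Ang II, 15.6, 13.8 and 11.8 CPM with EHP-101 and 32.7, 15.9 and 14.8 CPM with losartan. Its 3 controls differed by less than 1 CPM, the Ang II libraries lay below them, and losartan replicate 1 held more than any other library. Ang II against control gave -0.31 ± 0.25 (adjusted p = 0.512) for Ehhadh, -0.22 ± 0.12 (adjusted p = 0.35) for Hsd17b4 (the other bifunctional enzyme) and -0.07 ± 0.11 (adjusted p = 0.737) for the peroxisomal thiolase Acaa1a, whose level stayed between 43.3 and 55.3 CPM in all 12 libraries. Acot1, a cytosolic thioesterase (chr12:84009490-84018371), was at 7.14, 8.88 and 4.17 CPM in the control libraries, 3.87, 5.36 and 3.75 CPM under Ang II, 4.82, 3.51 and 4.25 CPM with EHP-101 and 17.1, 4.14 and 5.69 CPM with losartan. Acot1 was below 9 CPM in 11 libraries, and the exception was losartan replicate 1. Its Ang II difference was -0.63 ± 0.44 (adjusted p = 0.454), that of its mitochondrial relative Acot2 -0.32 ± 0.17 (adjusted p = 0.347), and that of Acot13 -0.52 ± 0.25 (adjusted p = 0.306), which was -0.06 without control replicate 2. Without that library Acot1 was at -0.39 (adjusted p = 0.818) and Acaa1a at 0.00 (adjusted p = 0.992). Acot1 and Acot2 are near copies on the same chromosome: 24.55% of the 50-base stretches of Acot2 occur in Acot1, so their reads could be split.

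Pdk4 and Ucp3, which respond to fasting and fatty acid load in muscle, varied widely between libraries of 1 group. Pdk4 (chr6:5483351-5496309) encodes the kinase that shuts the pyruvate dehydrogenase complex, and was at 432, 291 and 291 CPM in the control libraries, 338, 575 and 289.6 CPM under Ang II, 657, 589 and 666 CPM with EHP-101 and 2811, 423 and 293 CPM with losartan. The control and Ang II values of Pdk4 overlapped, the 3 EHP-101 libraries lay above all 6 of them, and losartan replicate 1 lay above every other library while losartan replicates 2 and 3 were inside the control and Ang II range. Its log2 fold change for Ang II was 0.25 ± 0.65 (adjusted p = 0.864), and it was -0.11 without Ang II replicate 2 and 0.15 (adjusted p = 0.966) without control replicate 2. Ucp3 (chr7:100472990-100486432), a carrier of the inner mitochondrial membrane, was at 48.3, 30.2 and 63.5 CPM in the control libraries, 24.1, 52.9 and 22.0 CPM under Ang II, 64.3, 30.0 and 62.8 CPM with EHP-101 and 102, 48.8 and 37.2 CPM with losartan. The Ucp3 values of all 4 groups overlapped, and Ang II against control gave -0.52 ± 0.44 (adjusted p = 0.533).

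**Figure D3:**
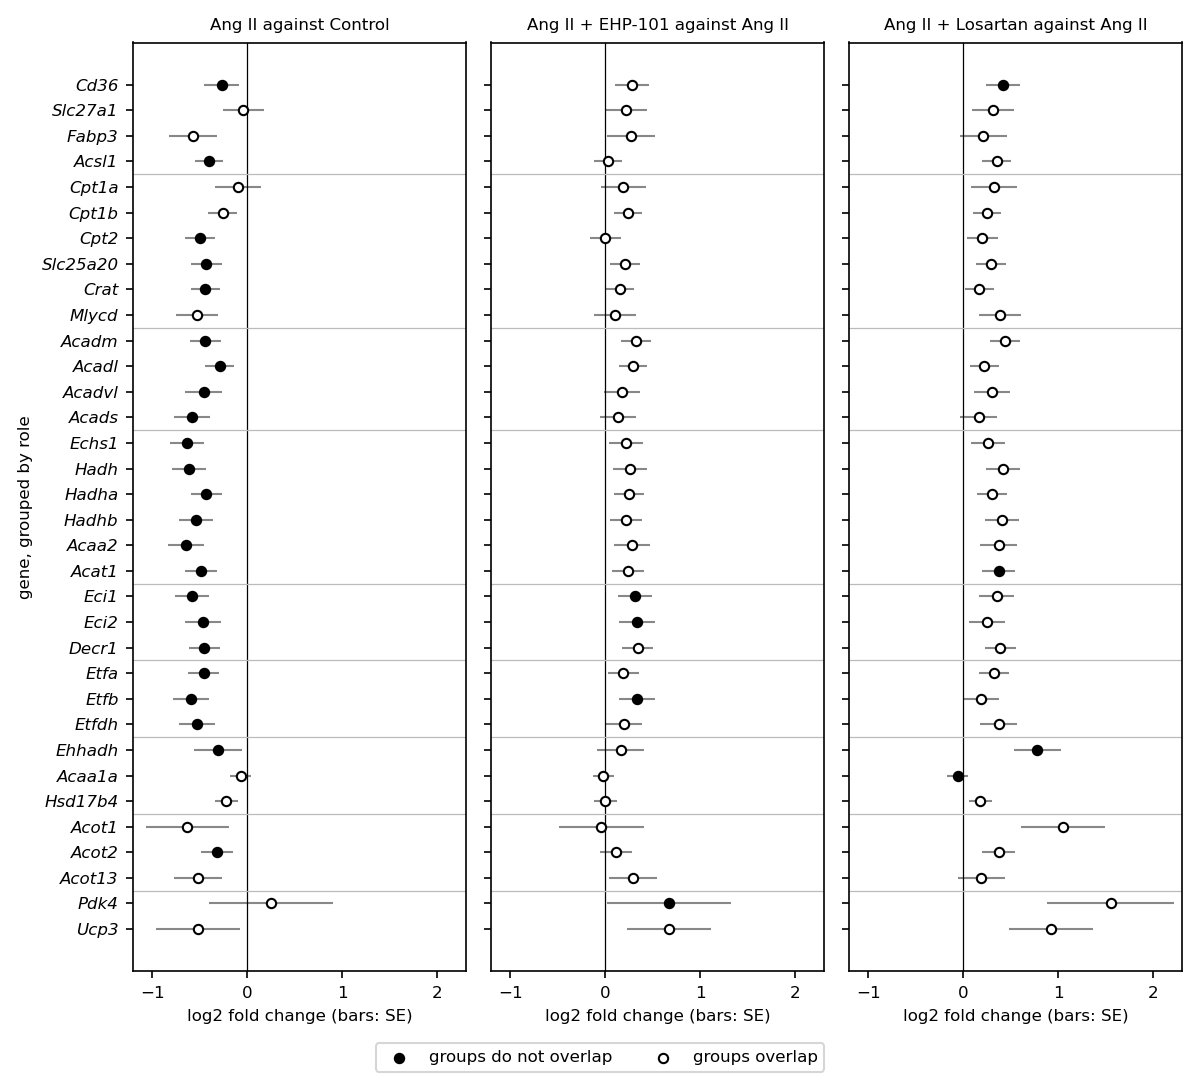
Log2 fold change (horizontal axis, bars are the SE from edgeR) of each of the 34 genes, grouped by role, in 3 comparisons that share the Ang II libraries. Filled points are genes whose groups do not overlap: 23 lower for Ang II against control, 4 higher for EHP-101 against Ang II, and 3 higher and 1 lower for losartan against Ang II.

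With EHP-101, 32 of the 34 genes had a higher fitted value than under Ang II alone. Their median difference on the log2 scale was 0.22 (range -0.04 to 0.67) beside a median of 0 over all tested genes. All 12 cardiomyocyte markers also had higher fitted values with EHP-101 (median 0.30, range 0.09 to 0.49, 5 without overlap, 0 called), and with their score as a covariate, chosen after seeing the data, the median of the 34 was -0.05. None of the 34 passed the test, and neither did any other gene (0% of those tested). At an unadjusted p under 0.05 there were 0 of the 34 and 1108 of the 15336 tested genes, in either direction. DESeq2 called 0 of the 34 (0.365% of all genes), and so did limma-voom (0%) and limma-voom with quality weights (0%). The groups did not overlap for 4 genes, all higher with EHP-101: Eci1, Eci2, Etfb and Pdk4. Over all tested genes 7.01% were higher and 9.74% lower without overlap, so 4 of 34 is close to that share. The smallest adjusted p was that of Decr1, at 0.34 ± 0.16 (adjusted p = 0.715). Acadl followed with 0.29 ± 0.15 (adjusted p = 0.768) and Acadm with 0.32 ± 0.16 (adjusted p = 0.769). Differences of 0.67 ± 0.65 (adjusted p = 0.946) for Pdk4 and 0.67 ± 0.44 (adjusted p = 0.874) for Ucp3 were the largest of the 34, and both had wide errors. Cd36 gave 0.28 ± 0.18 (adjusted p = 0.877), Hadha 0.25 ± 0.16 (adjusted p = 0.855) and Cpt1b 0.24 ± 0.15 (adjusted p = 0.865). Ang II replicate 2 weighed on the count: without it 24 of the 34 genes were higher with EHP-101 without overlap, with 15.6% of all genes, and the median was 0.37. Without EHP-101 replicate 3 there were 11, with 15.5% of all genes, without EHP-101 replicate 2 there were 7, with 12%, and without EHP-101 replicate 1 there were 6, with 13.2%.

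With losartan, 33 of the 34 genes had a higher fitted value than under Ang II alone, with a median of 0.32 (range -0.06 to 1.55), again beside a median of 0 over all genes. Of the 12 cardiomyocyte markers 11 had higher fitted values with losartan (median 0.20, 0 without overlap, 0 called), and with their score as a covariate the median of the 34 was 0.16. None of the 34 and no other gene passed the test (0%). At an unadjusted p under 0.05 there were 10 of the 34, all higher, and 1289 of the 15336 tested genes, counted in either direction. DESeq2 called 0 of the 34 (0.731% of all genes), and so did limma-voom (0%) and limma-voom with quality weights (3.9%). The groups did not overlap for 3 genes that were higher, Ehhadh, Cd36 and Acat1, and for 1 that was lower, Acaa1a, where 9.22% of all genes were higher and 10.5% lower without overlap. The smallest p belonged to Ehhadh, at 0.78 ± 0.25 (adjusted p = 0.371), before Acadm at 0.44 ± 0.16 (adjusted p = 0.464) and Decr1 at 0.39 ± 0.16 (adjusted p = 0.519). Cd36 gave 0.42 ± 0.18 (adjusted p = 0.549), Hadha 0.30 ± 0.16 (adjusted p = 0.642) and Cpt1b 0.25 ± 0.15 (adjusted p = 0.711). Acot1 and Pdk4 were the 2 genes with a log2 fold change above 1, 1.05 ± 0.44 (adjusted p = 0.527) and 1.55 ± 0.67 (adjusted p = 0.548), and Ucp3 gave 0.92 ± 0.44 (adjusted p = 0.611).

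The differences of Pdk4, Acot1, Ehhadh, Ucp3 and Cd36 were smaller without losartan replicate 1, and of these only that of Pdk4 changed direction. Losartan replicate 1 was the highest of its group for 27 of the 34 genes and losartan replicate 2 the lowest for 27. Without losartan replicate 1 the log2 fold change against Ang II was -0.16 for Pdk4, 0.19 for Acot1, 0.32 for Ehhadh, 0.38 for Ucp3 and 0.21 for Cd36. That library also had the highest mitochondrially encoded share of reads, 25.4%, against 17.7% to 24.7% in the other 11, whose part in the result was not tested. Leaving out losartan replicate 1 gave 3 of the 34 genes higher without overlap, with 16.1% of all genes. Leaving out losartan replicate 2 gave 21, with 15% of all genes, and leaving out losartan replicate 3 gave 5, with 14.1%. Leaving out Ang II replicate 2 gave 28, with 19.6% of all genes. The EHP-101 and losartan comparisons share the Ang II libraries, so their directions are not independent of each other.

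EHP-101 and losartan were also compared directly, in mice that all received Ang II. None of the 34 genes and no other gene passed the test (0%). At an unadjusted p under 0.05 were 927 of the 15336 tested genes, in either direction. The median was -0.12 (range -1.09 to 0.14, EHP-101 minus losartan). At an unadjusted p under 0.05 there were 2 of the 34, both lower with EHP-101: Ehhadh at -0.62 ± 0.25 (adjusted p = 0.758) and Acot1 at -1.09 ± 0.44 (adjusted p = 0.771). Without losartan replicate 1 these were -0.16 for Ehhadh and -0.23 for Acot1. Acsl1 was the only one of the 34 without overlap, lower with EHP-101, at -0.31 ± 0.15 (adjusted p = 0.841), where 6.74% of all genes were lower and 6.57% higher without overlap. That count moved with the libraries left out: 6 were lower without losartan replicate 2 (10.8% of all genes), 5 without EHP-101 replicate 1 (12.9%) and 2 without losartan replicate 3 (10.6%) or EHP-101 replicate 2 (11.4%). There were 2 lower and 1 higher without EHP-101 replicate 3 (10.7% and 11%), and 2 lower and 4 higher without losartan replicate 1 (14% and 14.3%). DESeq2 called 0 of the 34 (0.103% of all genes), and so did limma-voom (0%) and limma-voom with quality weights (0.00652%).

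Against the saline controls, the treated hearts had mostly lower fitted values. In the comparison of EHP-101 with control 0 of the 34 genes were called, beside 61 of all genes (0.398%). At an unadjusted p under 0.05 there were 4 of the 34, all lower, and 2593 of the 15336 tested genes, counted in either direction. These 4 were Cpt2 at -0.50 ± 0.16 (adjusted p = 0.169), Acads at -0.45 ± 0.19 (adjusted p = 0.254), Acsl1 at -0.37 ± 0.15 (adjusted p = 0.26) and Echs1 at -0.41 ± 0.18 (adjusted p = 0.281). Without control replicate 2 Acads was at -0.22 (adjusted p = 0.538) and Echs1 at -0.15 (adjusted p = 0.635). Without overlap, 8 were lower (Cpt2, Acads, Acsl1, Crat, Hadh, Hsd17b4, Slc25a20 and Acot2) and 1, Pdk4, was higher, where 10.4% of all genes were lower and 10.7% higher. Pdk4 gave 0.91 ± 0.66 (adjusted p = 0.464). The count of lower genes was 17 without control replicate 3 (16.8% of all genes) and 18 without EHP-101 replicate 1 (14.8%). The median of the 34 was -0.24, from -0.68 to 0.91. DESeq2 called 0 of the 34 (3.33% of all genes), and so did limma-voom (0.293%) and limma-voom with quality weights (3.11%). With losartan against control, no gene of the 34 or of the whole table was called (0%), and the median was -0.14, from -0.42 to 1.80. Pdk4 was higher, 1.80 ± 0.67 (adjusted p = 0.456), and Acads lower, -0.42 ± 0.19 (adjusted p = 0.456), at an unadjusted p under 0.05. Of the 15336 tested genes 1640 were under it, in either direction. Without losartan replicate 1 the Pdk4 value was 0.08, and without control replicate 2 that of Acads was -0.18 (adjusted p = 0.89). Acaa1a and Hadha were lower without overlap, where 7.09% of all genes were lower and 8.27% higher. There were 8 lower without control replicate 3 (15% of all genes) or losartan replicate 1 (12.9%), 5 without losartan replicate 3 (12.7%) and 3 without control replicate 1 (10.2%). DESeq2 called 0 of the 34 (0.161% of all genes), and so did limma-voom (0%) and limma-voom with quality weights (0.0196%).

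The promoters of 27 of the 34 genes were found in the RefSeq table of GRCm38.p6, as windows from 250 bases before to 50 after a start site. Those not matched were Acaa2, Acat1, Acot13, Cpt1b, Crat, Decr1 and Hsd17b4. The motif AGGTCA, the half-site bound by nuclear receptors such as PPAR alpha with RXR and the oestrogen-related receptors, was searched on both strands. It was present in 6 of the 30 windows of these genes and in 16.3% of all 32851 windows. The longer form TCAAGGTCA and a direct repeat of AGGTCA with 1 base between the copies were in 0 of the 30, and in 0.423% and 0.0396% of all windows. The longer form contains AGGTCA, and so does the repeat. The median GC content of the 30 windows was 60.7%, against 52.7% over all windows. A match is a description of letters and not a site. Windows of 4 genes at different steps (entry into the cell, entry into mitochondria, the first oxidation and uncoupling) are shown 5′ to 3′ with AGGTCA or its reverse complement in capitals. They lie at chr5:17835847-17836146 on the minus strand for Cd36, chr19:3323051-3323350 on the plus strand for Cpt1a, chr3:153944594-153944893 on the minus strand for Acadm and chr7:100472741-100473040 on the plus strand for Ucp3.
Cd36: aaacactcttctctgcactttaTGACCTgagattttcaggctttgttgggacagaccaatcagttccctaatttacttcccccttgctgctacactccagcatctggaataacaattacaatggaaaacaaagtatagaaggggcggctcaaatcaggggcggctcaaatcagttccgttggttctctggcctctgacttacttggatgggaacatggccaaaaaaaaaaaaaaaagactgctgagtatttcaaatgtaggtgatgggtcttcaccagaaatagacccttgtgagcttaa
Cpt1a: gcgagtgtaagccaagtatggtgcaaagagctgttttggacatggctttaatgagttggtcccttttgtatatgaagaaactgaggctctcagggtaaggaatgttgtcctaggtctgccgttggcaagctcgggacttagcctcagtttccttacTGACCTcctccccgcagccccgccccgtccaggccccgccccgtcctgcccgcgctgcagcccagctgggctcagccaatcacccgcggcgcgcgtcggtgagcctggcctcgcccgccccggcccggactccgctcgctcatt
Acadm: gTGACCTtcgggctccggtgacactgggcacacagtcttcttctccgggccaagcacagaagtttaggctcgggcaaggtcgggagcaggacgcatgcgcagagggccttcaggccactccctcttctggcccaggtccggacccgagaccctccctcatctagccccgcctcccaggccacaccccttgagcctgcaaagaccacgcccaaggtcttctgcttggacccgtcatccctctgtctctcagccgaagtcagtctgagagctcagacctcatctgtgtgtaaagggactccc
Ucp3: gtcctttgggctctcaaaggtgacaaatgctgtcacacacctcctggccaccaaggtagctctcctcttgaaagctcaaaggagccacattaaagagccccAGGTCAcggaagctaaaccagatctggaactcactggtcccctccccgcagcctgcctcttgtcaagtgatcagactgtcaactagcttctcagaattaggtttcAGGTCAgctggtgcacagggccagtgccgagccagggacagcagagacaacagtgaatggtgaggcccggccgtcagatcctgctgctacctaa
The match began 228 bases before the start site in Cd36, 94 in Cpt1a and 249 in Acadm, and there were 2 in Ucp3, at 149 and 44 bases before it. Of the 6 genes with a match, Acadm, Acadvl, Cd36 and Echs1 were lower under Ang II without overlap, while Cpt1a and Ucp3 overlapped with the controls. Over the whole list 23 of 34 genes were lower without overlap, a similar share, beside 10.3% of all tested genes.

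Genes outside the 34 with related roles also had mostly lower fitted values under Ang II. Over all tested genes 10.3% were lower and 12.3% higher without overlap in this comparison. Of 42 other tested genes of fatty acid handling (lipases, binding proteins, acyl-CoA synthetases, peroxisomal and ketone body genes), 30 had a lower and 12 a higher fitted value under Ang II, 0 were called, 10 were lower and 1 higher without overlap, and the median was -0.16. Ech1, an enoyl-CoA isomerase, was at -0.75 ± 0.21 (adjusted p = 0.139) and Acad11, another acyl-CoA dehydrogenase, at -0.53 ± 0.15 (adjusted p = 0.141). Without control replicate 2 the list had a median of -0.08. Of 20 regulators, 17 were lower and 3 higher in fitted value, 0 were called, 6 were lower without overlap, and the median was -0.24. The receptor Rxrg gave -0.65 ± 0.20 (adjusted p = 0.168) and Esrra, the oestrogen-related receptor alpha, -0.51 ± 0.17 (adjusted p = 0.192), and without control replicate 2 they gave -0.33 (adjusted p = 0.304) and -0.28 (adjusted p = 0.364), with a list median of -0.25. Ppara, the receptor that drives much of the pathway, was at 42.0, 32.0 and 46.0 CPM in the controls, 20.2, 35.8 and 24.7 CPM under Ang II, 38.0, 33.2 and 12.9 CPM with EHP-101 and 29.8, 32.4 and 42.0 CPM with losartan. Its control and Ang II values overlapped, with a difference of -0.58 ± 0.33 (adjusted p = 0.365).

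The tricarboxylic acid cycle and the nuclear genes of oxidative phosphorylation had medians close to that of the 34 genes under Ang II. In this comparison 10.3% of all tested genes were lower without overlap. All 18 genes of the cycle were lower in fitted value (median -0.48, 13 without overlap, 0 called), and so were all 18 oxidative phosphorylation genes (median -0.59, 13 without overlap, 0 called). Idh3b of the cycle gave -0.62 ± 0.17 (adjusted p = 0.143), and Uqcrc1 of respiratory complex III gave -0.59 ± 0.18 (adjusted p = 0.155). Without control replicate 2 the medians were -0.33 for the cycle and -0.31 for oxidative phosphorylation, with all 18 of each lower in fitted value, Idh3b at -0.41 (adjusted p = 0.241) and Uqcrc1 at -0.38 (adjusted p = 0.287). Summed levels of the cycle were 17111, 20181 and 16848 CPM in the controls and 11696, 15536 and 12656 CPM under Ang II, with replicates 1 and 3 again the low ones. Against Ang II, the medians with EHP-101 were 0.09 for the other fatty acid genes, 0.09 for the regulators, 0.15 for the cycle and 0.15 for oxidative phosphorylation, with 0 called. With losartan they were 0.16, 0.19, 0.23 and 0.19, with 0 called. Without Ang II replicate 2 they were 0.16, 0.19, 0.28 and 0.27 with EHP-101 and 0.21, 0.26, 0.36 and 0.31 with losartan. With the cardiomyocyte score as a covariate they were -0.06, 0.02, -0.20 and -0.23 with EHP-101, and 0.09, 0.03, 0.02 and -0.07 with losartan. Among the genes with the smallest p were the lipases Lpl, 0.44 ± 0.17 (adjusted p = 0.58), and Pnpla2, 0.43 ± 0.16 (adjusted p = 0.562), and the factor Klf15, 0.70 ± 0.28 (adjusted p = 0.602), with EHP-101, and Abcd3, a peroxisomal acyl-CoA transporter, 0.33 ± 0.13 (adjusted p = 0.489), and the oestrogen-related receptor Esrrg, 0.41 ± 0.14 (adjusted p = 0.424), with losartan.

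**Figure D4:**
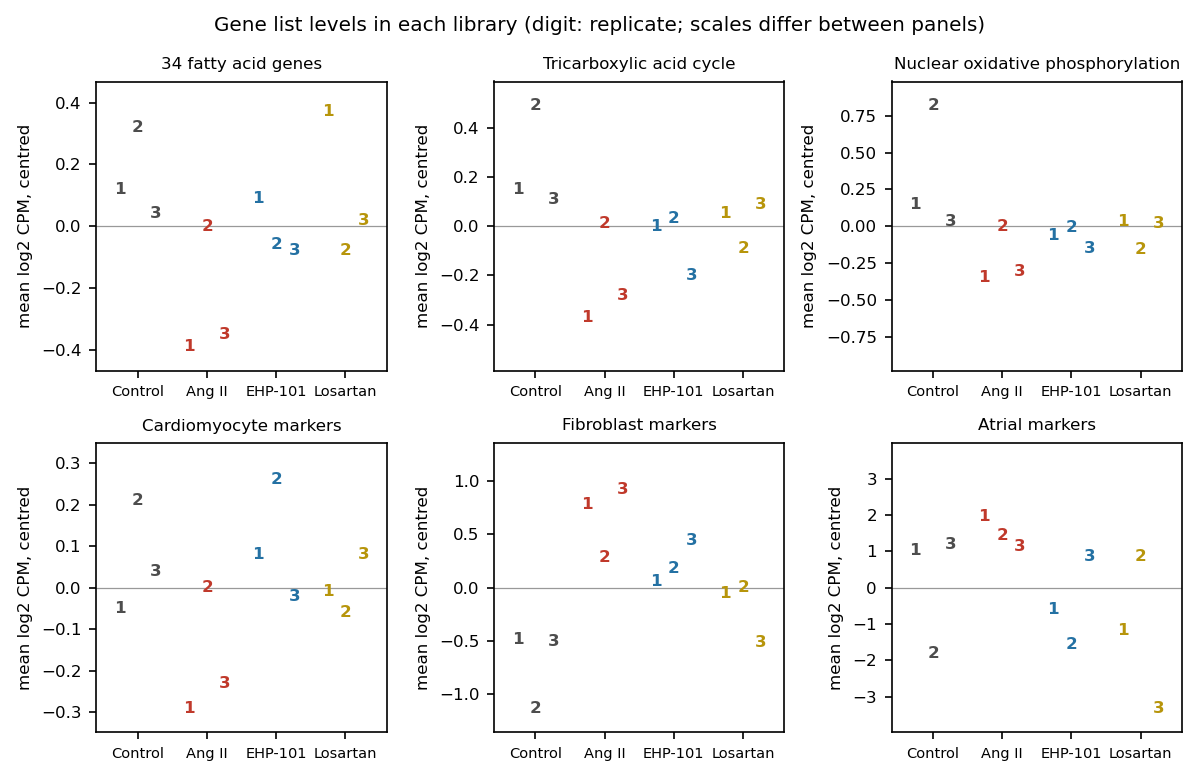
Mean log2 CPM of 6 gene lists (vertical axes, centred on the 12 libraries, scales differ between panels) in each library, drawn as the replicate number. The 34 genes, the tricarboxylic acid cycle, oxidative phosphorylation and the cardiomyocyte markers are all lowest in Ang II replicates 1 and 3, where the fibroblast markers are highest.

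Markers of the cells in the sample also differed between libraries. Summed levels of 12 cardiomyocyte markers, led by Myh6, were 72670.3, 83615 and 79749.7 CPM in the controls, 62524, 75493 and 63666 CPM under Ang II, 78398, 88608 and 73148 CPM with EHP-101 and 71757, 73669.5 and 81249 CPM with losartan. Under Ang II 10 of the 12 had lower and 2 higher fitted values than in the controls (median -0.21, 2 lower without overlap, 0 called). Myh6 itself had a mean of 17876.6 CPM in the controls and 18579.1 CPM under Ang II. Per 100 CPM of these markers the 34 genes held 22.0, 23.3 and 19.3 CPM in the controls and 18, 19.5 and 18.5 CPM under Ang II, which overlapped. With EHP-101 this ratio was 20.5, 17.2 and 18.6, and with losartan 27.6, 19.0 and 19.2. With the cardiomyocyte marker score as a covariate, the median of the 34 was -0.24 for Ang II against control. All 8 fibroblast markers were higher under Ang II without overlap, and 3 of the 8 were called. Over all tested genes 12.3% were higher and 10.3% lower without overlap, and 0.541% were called in either direction. Their sums, led by Col3a1 and Dcn, were 2096, 1406 and 2003 CPM in the controls, 5098, 3527 and 5799.8 CPM under Ang II, 2929, 3541 and 3895 CPM with EHP-101 and 3011, 2852 and 2001 CPM with losartan. Against Ang II all 8 had lower fitted values with EHP-101 (median -0.46, 2 without overlap, 0 called) and with losartan (median -0.93, 5 without overlap, 0 called). Of all tested genes 9.74% were lower without overlap with EHP-101 and 10.5% with losartan. Their part in the result was not tested.

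Other tissue in the samples also varied. The summed atrial markers, 10 genes led by Myl4 and Nppa, were 1507, 377 and 2171 CPM in the controls, 3139, 2195 and 1744 CPM under Ang II, 659.8, 599 and 1306 CPM with EHP-101 and 439, 2366 and 161 CPM with losartan. With their score as a covariate the medians of the 34 were -0.37, 0.08 and 0.15 in the first 3 comparisons. Under Ang II 9 of the 10 atrial markers had a higher and 1 a lower fitted value than in the controls (median 0.52, 0 called). Of the 10, 3 were higher without overlap, beside 12.3% of all tested genes. All 10 atrial markers had lower fitted values with EHP-101 than under Ang II (median -1.51, 8 without overlap, 0 called), and with losartan (median -1.04, 2 without overlap, 0 called). For this list and the macrophage list below, the shares over all tested genes were 9.74% lower without overlap with EHP-101 and 10.5% with losartan. Markers of adipocytes, which use several of the same genes, summed to 53.5, 49.5 and 48.6 CPM in the controls, 139, 54.4 and 77.4 CPM under Ang II, 87.1, 62.6 and 45.1 CPM with EHP-101 and 40.2, 126 and 28.0 CPM with losartan, with Lep and Ucp1 at 0 in 3 libraries each. Cidea led the adipocyte list in the controls, with means of 30.4 CPM there and 25.4 CPM under Ang II, where Cfd had 12.3 and 39.4 CPM. Of the 7 tested adipocyte markers 6 had a higher and 1 a lower fitted value under Ang II than in the controls (median 1.38, 0 called). Their mean log2 CPM, centred on the 12 libraries, was -0.02, -2.18 and -0.18 in the controls and 1.97, 0.21 and 0.59 under Ang II. Markers of skeletal muscle, which also expresses Cpt1b, Fabp3 and Ucp3, summed to between 2.48 and 6.64 CPM in the 12 libraries. Endothelial markers, from cells that also hold CD36, summed to 1336, 1107 and 1368 CPM in the controls, 1452, 1333 and 1427 CPM under Ang II, 1223, 1421 and 1459 CPM with EHP-101 and 1119, 1477 and 1596 CPM with losartan. The groups of endothelial sums overlapped, and against Ang II 7 of the 8 markers had a lower fitted value with EHP-101 (median -0.13) and 5 of the 8 with losartan (median -0.05). Macrophage markers summed to 466, 583 and 393 CPM in the controls, 452, 437 and 577 CPM under Ang II, 376, 365 and 201 CPM with EHP-101 and 435, 319 and 359 CPM with losartan. All 7 macrophage markers had lower fitted values with EHP-101 than under Ang II (median -0.63, 4 without overlap, 0 called), and 6 of the 7 with losartan (median -0.50, 5 without overlap, 0 called). The part of atrial, adipocyte, endothelial and macrophage cells in the results was not tested further.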

How the data were processed

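The authors deposited unnormalised counts of reads for each gene of 12 libraries, and no normalised value was used. Per the labels, poly(A) RNA from 300 ng of total RNA was made into TruSeq RNA v2 libraries, which keep no strand, and read as single ends of 50 bases. Per the submitters' processing notes, fastp 0.20.0, HISAT2 2.1.0, featureCounts 2.0.0 and edgeR 3.30.0 were used with GRCm38; the annotation and the handling of multiply mapped reads are not given in the sources used here. Positions came from GENCODE M21.

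In R 4.3.3 with edgeR 4.0.16, genes passing filterByExpr (15336) were scaled by TMM, fitted in 1 robust quasi-likelihood model with a mean per group (common biological coefficient of variation 0.189) and tested two-sided, with Benjamini-Hochberg adjustment over all tested genes. The SE is the absolute log2 fold change divided by the square root of F. DESeq2 1.42.0, limma 3.58.1, other filters and scalings, covariates, a replicate block and leaving out libraries were alternatives. The pipeline was tested on simulated data. The members and gene lists were chosen with earlier results of these data known. Values per library are given for Cd36, Cpt1b, Acadm, Hadha, Pdk4 and Ucp3, for the 3 members with the smallest p in each comparison, for members with a log2 fold change of at least 1, and for Hadhb, Fabp3 and Ppara, which were added after their values were seen. Of each related list, genes among the 2 with the smallest p per comparison are named, apart from some that are not reported here.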

Additional observations from a re-analysis of the deposited data

How the results depend on the processing

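Across the alternatives, the median log2 fold change of the 34 genes kept its direction for Ang II against control and for losartan against Ang II. With the cardiomyocyte marker score as a covariate, chosen after seeing the data, it was -0.24 for Ang II against control and -0.05 for EHP-101 against Ang II. In that fit of EHP-101 against Ang II, Cd36 was at -0.01, Idh3g at -0.05, Ndufv1 at -0.03 and Atp5a1 at -0.13. The number of the 34 genes called for Ang II against control was 0 in edgeR, 5 in DESeq2 and 22 in limma-voom with sample quality weights, beside 4, 144 and 1131 of all genes called lower. Pdk4 for Ang II against control was -0.20 with quality weights and -0.11 without Ang II replicate 2 (leaving out 1 library in turn gave -0.11 to 0.46). Pdk4 for losartan against Ang II was -0.16 without losartan replicate 1 (-0.16 to 2.01 over the libraries left out), and -0.16 with control replicate 2 also left out, where Pdk4 for losartan against control was -0.01. Uqcrc2 for losartan against Ang II was -0.04 with the atrial score as a covariate. The cause was not tested in any of these.

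With 1 library left out at a time, the median of the 34 ranged from -0.60 to -0.34 for Ang II against control, 0.14 to 0.37 for EHP-101 against Ang II, 0.24 to 0.47 for losartan against Ang II, -0.18 to -0.03 for EHP-101 against losartan, -0.30 to -0.14 for EHP-101 against control and -0.20 to 0.01 for losartan against control, and edgeR called 0 of the 34 each time. With the replicate block the medians in that order were -0.46, 0.22, 0.32, -0.13, -0.23 and -0.13, with 0 called. Samples of the same number had a median r of 0.015 between their deviations (18 pairs, -0.33 to 0.33, 4 of them above 0.1). Samples of different numbers had a median of 0.01 (36 pairs, -0.37 to 0.31, 10 above 0.1). Deviations within a group of 3 constrain each other, so these values do not decide whether the numbers pair the samples. With library size alone as the scaling, the median over all genes was 0.17, -0.15 and -0.12 in the first 3 comparisons, and that of the 34 was -0.28, 0.08 and 0.20.

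Counts over all genes depended on the tool. For Ang II against control edgeR called 83, DESeq2 505, limma-voom 51, limma-voom with quality weights 2617, edgeR without a filter 167 and with the compared groups alone 20, and 8 to 151 with 1 library left out. For EHP-101 against control edgeR called 61, DESeq2 492, limma-voom with quality weights 477, edgeR with the atrial score 216, without a filter 158, with library size alone 22, with the replicate block 36 and with the compared groups alone 14, and 5 to 62 with 1 library left out. Where edgeR called 0, DESeq2 called 108 for losartan against Ang II, 60 for EHP-101 against Ang II, 25 for EHP-101 against losartan and 22 for losartan against control. Limma-voom with quality weights called 598 for losartan against Ang II and 3 for losartan against control. EdgeR without a filter called 30 for losartan against Ang II and 10 for EHP-101 against Ang II, where the compared groups alone gave 3. Acot1, Ehhadh and Cpt1b had the fewest reads of the 34, so counting error weighs most there.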
